A study of Mus musculus with 8 samples.

Results

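The insulin and insulin-like growth factor (IGF) pathway is represented here by 8 mouse genes, which were the ligand Igf1, the receptors Insr and Igf1r, the adaptors Irs1 and Irs2, the phosphoinositide 3-kinase (PI3-kinase) subunit Pik3r1 and the kinases Akt1 and Akt2. They were taken by name from the 21853 protein-coding genes of the mm10 annotation (GENCODE, build GRCm38). A gene's region was its body together with 50 kb to each side of every start of its protein-coding transcripts, and the 8 regions made up 1271.57 kb. The data were lists of peaks from chromatin immunoprecipitation with sequencing (ChIP-seq) on nuclei of skeletal muscle, from wild-type (WT) C57/Bl6J mice aged 10-12 weeks. Antibodies were directed against the glucocorticoid receptor (GR), RNA polymerase II (Pol2), CTCF, which shapes chromatin loops, and the histone marks H3K4me3, H3K27ac and H3K4me1. Each antibody gave 1 library, and of the 2 input libraries the labels tie Input 2 to the H3K4me3 and CTCF libraries and Input 1 to the other 4. No group was treated or mutated, so the comparisons are between genes and between marks within these libraries. No value below has a replicate, and the number of mice and the muscles taken are not stated here.

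Insulin and IGF1 bind related receptor tyrosine kinases, which phosphorylate the adaptors IRS1 and IRS2. The adaptors recruit PI3-kinase, whose lipid product brings AKT kinases to the membrane, where they are activated. In muscle the pathway drives glucose uptake, glycogen synthesis and protein synthesis and restrains proteolysis, and glucocorticoids, which act through GR, are known to oppose it. GR is a hormone-activated transcription factor that binds a palindromic DNA element, the glucocorticoid response element (GRE), or reaches DNA through other factors. Of the histone marks, H3K4me3 is typical of promoters, H3K4me1 of enhancers and their surroundings, and H3K27ac of regulatory DNA that is in use.

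The 8 regions held 338 peaks in all, of which 52 were GR peaks, 43 Pol2, 30 H3K4me3, 92 H3K27ac, 111 H3K4me1 and 10 CTCF. Each of the 8 genes had at least 1 GR peak in its region, as did 67.6% of all protein-coding genes. Pol2 was found in 7 of the 8 regions (65.6% of all genes), and H3K4me3 (77.2%), H3K27ac (71.5%) and H3K4me1 (81.5%) in all 8. At the coding starts themselves, within 1 kb, GR was called at all 8 genes, against 42.6% of all genes. Pol2 peaks lay within 1 kb of a start at 7 of the 8 genes (46.6% of all genes), with Igf1 as the exception. H3K4me3 (60.9% of all genes), H3K27ac (51.8%) and H3K4me1 (64.3%) peaks lay there at all 8 genes. CTCF peaks lay within 1 kb of a start at Irs1 and Akt1 only (6.51% of all genes), and 5 of the 8 regions held a CTCF peak (43% of all genes). Pooled over all coding starts of a gene, GR, Pol2, H3K4me3 and H3K27ac were all called at 7 genes, against 39.4% of all genes. Akt1 is among the 7 although its GR peak lay at another start than its Pol2 and H3K4me3 peaks. These counts describe 8 chosen genes in single libraries and were not tested.

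**Figure D1:**
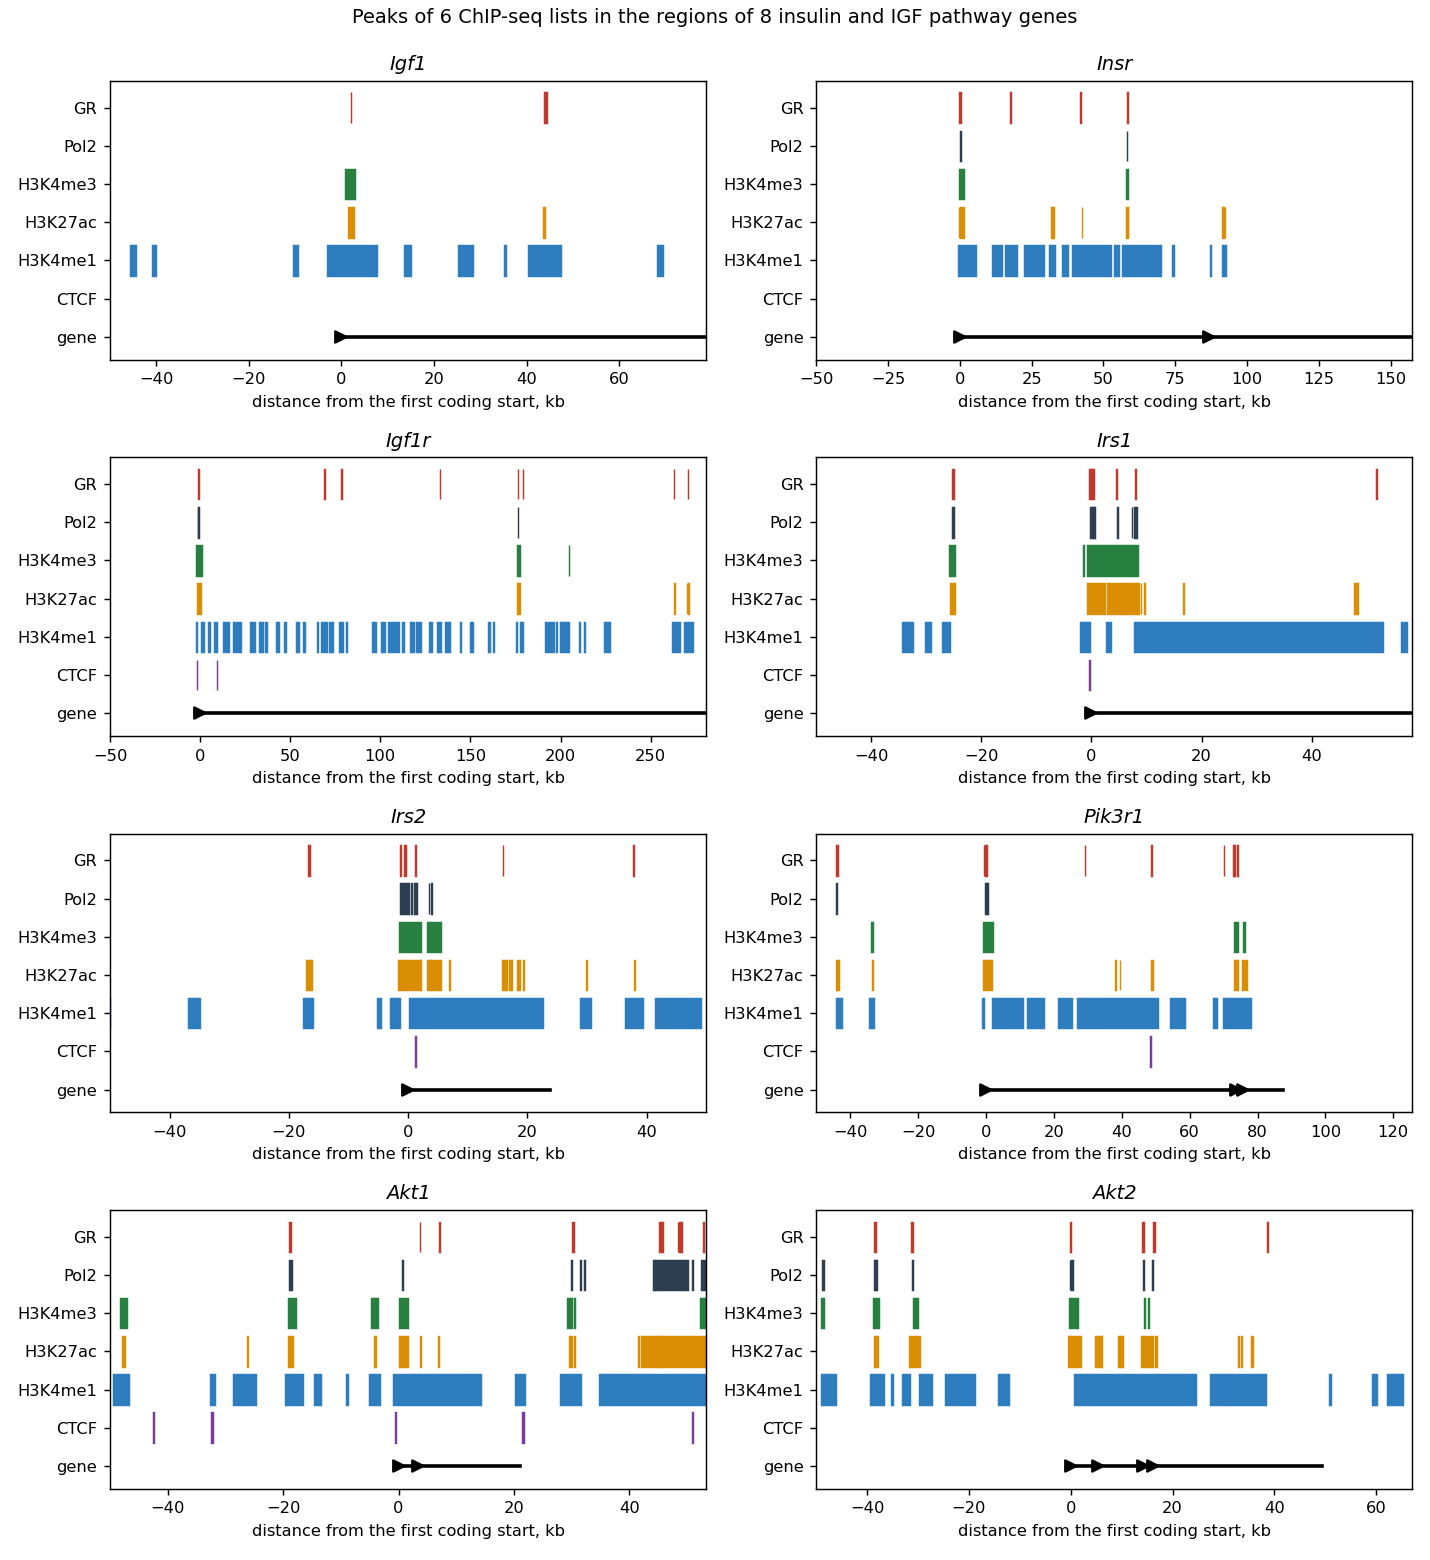
Peaks of the 6 lists in the regions of the 8 genes, each block a peak placed by its distance in kb from the gene's first coding start, with the direction of transcription to the right. Very narrow peaks are drawn at a minimum line width, and in the bottom row of each panel the line is the gene body and the triangles are coding starts. Igf1 has no Pol2 block, and Akt1 has most of its GR blocks to the right of its body.

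The DNA of 6 GR peaks is shown first, because these were the peaks of the 8 genes whose sequence came closest to a GRE. The search was for AGAACA, then any 3 bases, then TGTTCT, on both strands, and mismatches were counted over the 12 fixed letters. Capitals mark the best matching stretch, and all 6 sequences are from the + strand of GRCm38. The exact element was found in none of the 52 peaks, and in 44 of the 23188 GR peaks of the whole list (0.190%). A match is a description of the letters and does not show a binding site.

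Pik3r1, chr13:101811999-101812298, with 1 mismatch: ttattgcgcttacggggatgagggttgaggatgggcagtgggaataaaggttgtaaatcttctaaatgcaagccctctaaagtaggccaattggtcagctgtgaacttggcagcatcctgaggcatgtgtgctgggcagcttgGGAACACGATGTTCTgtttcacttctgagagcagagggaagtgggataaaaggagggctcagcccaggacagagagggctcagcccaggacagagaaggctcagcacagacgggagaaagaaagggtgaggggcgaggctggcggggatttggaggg

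Pik3r1, chr13:101719434-101719598, with 2 mismatches: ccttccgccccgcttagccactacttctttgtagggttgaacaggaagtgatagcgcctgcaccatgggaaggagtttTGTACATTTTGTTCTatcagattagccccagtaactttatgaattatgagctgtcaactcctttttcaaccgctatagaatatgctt

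Irs2, chr8:10970602-10970765, with 3 mismatches: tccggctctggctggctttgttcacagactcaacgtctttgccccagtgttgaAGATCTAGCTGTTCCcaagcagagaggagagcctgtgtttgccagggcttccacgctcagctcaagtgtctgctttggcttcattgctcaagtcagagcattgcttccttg

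Insr, chr8:3261923-3262080, with 3 mismatches: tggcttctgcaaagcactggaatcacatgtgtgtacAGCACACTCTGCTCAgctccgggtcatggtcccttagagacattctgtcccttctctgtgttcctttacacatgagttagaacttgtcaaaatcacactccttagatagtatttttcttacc

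Irs1, chr1:82239561-82239705, with 3 mismatches: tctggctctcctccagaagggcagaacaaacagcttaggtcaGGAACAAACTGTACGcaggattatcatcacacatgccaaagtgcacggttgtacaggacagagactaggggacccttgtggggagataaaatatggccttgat

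Pik3r1, chr13:101698102-101698224, with 3 mismatches: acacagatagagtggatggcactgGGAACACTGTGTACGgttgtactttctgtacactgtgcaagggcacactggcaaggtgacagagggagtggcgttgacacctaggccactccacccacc

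Pik3r1 thus supplied 3 of the 6 sequences, and the only ones within 2 mismatches of the element. None of the 6 overlapped H3K4me3. The first is cut to 300 bases around the match, and the midpoint of its whole peak lies 43886 bases upstream of the first Pik3r1 start. The Irs2 sequence lies downstream of the gene body, and the other 4 lie in introns.

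Igf1 encodes the secreted growth factor IGF1, which muscle makes as well as liver. It had 3 GR peaks, which is more than 61.9% of all genes had. The peak at the starts, chr10:87860240-87860362, was 123 bases wide, the narrowest width in the GR list, which 1558 of 23188 peaks shared. It lay in a UTR exon, 271 bases from the nearest coding start, under a H3K4me3 peak of 2081 bases and a H3K27ac peak of 1432 bases. The other GR peaks lay side by side in an intron. One at chr10:87901975-87902150, 43798 bases into the gene, was 176 bases wide and sat on a H3K27ac peak of 558 bases without H3K4me3. Its neighbour at chr10:87902472-87902594 was 123 bases wide and had H3K4me1 as its only mark.

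No Pol2 peak was called anywhere in the 128.778 kb of the Igf1 region. Pooled over the starts of each gene, GR, H3K4me3 and H3K27ac were called without Pol2 at any start in 399 of the 21853 genes (1.83%), and by that rule Igf1 was the only one of the 8 genes among them. The authors' fold of the Igf1 H3K4me3 peak, the peak caller's enrichment over the control, was 20.3, with a −log10 q of 45.3. That fold was higher than those of 26% of the 13314 genes with such a peak, and was the lowest of the 8 genes. The Igf1 peak was nevertheless wider than those of 87.3% of these genes. H3K4me1 peaks covered 26.9% of the Igf1 body, with a peak of 10896 bases around the starts. The absence of a Pol2 peak says that none was called at the depth of that library, which is unknown. In nuclei from whole tissue, a mark carried by few cells and a mark that is weak in all cells cannot be told apart.

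Insr encodes the insulin receptor. A GR peak of 440 bases, chr8:3279308-3279747, lay over its first start, with its midpoint 89 bases inside the gene. A Pol2 peak of 298 bases, a H3K4me3 peak of 1791 bases and a H3K27ac peak of 1298 bases lay at the same start. The fold of that H3K4me3 peak was 49.1, higher than those of 82.8% of genes. The second coding start of Insr, 86900 bases further in, had a H3K4me1 peak and no peak of GR, Pol2, H3K4me3 or H3K27ac within 1 kb. The first start was thus the only one of the pair with these marks.

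The other 3 GR peaks of Insr lay in introns. The peak at chr8:3221157-3221344, 58366 bases into the gene and 188 bases wide, sat on Pol2 (156 bases), H3K27ac and a H3K4me3 peak of 936 bases with a fold of 18.6. The nearest start of any annotated GENCODE transcript was 28212 bases from that H3K4me3 peak, so the combination of marks seen at promoters occurred there without an annotated start. The GR peaks at chr8:3237459-3237630 (172 bases) and chr8:3261923-3262080 (158 bases) had H3K4me1 as their only mark. The region held 5 H3K27ac peaks without H3K4me3, none of which overlapped a GR peak. H3K4me1 covered 35.3% of the body, and no CTCF peak was called in the region.

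Igf1r encodes the IGF1 receptor and is the longest of the 8 genes, at 280.842 kb. The widest GR peak of all 8 regions, chr7:67951424-67952202, lay just upstream of its start. It was 779 bases wide, wider than 99.1% of GR peaks, and its midpoint was 1014 bases before the GENCODE coding start at position 67952827. RefSeq has an Igf1r start further upstream, with chr7:67952007-67952256 as the 250 bases before it. GR and Pol2 peaks overlapped that RefSeq promoter, so the distance depends on the annotated start. Pol2 peaks of 485 and 200 bases overlapped it, and all of these lay under a H3K4me3 peak of 3577 bases with a fold of 52.5, which ranked 154th in width among 19811. CTCF peaks flanked this promoter, 1814 bases before the start (269 bases, fold 7.04) and 9231 bases after it (187 bases, fold 6.63).

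Inside Igf1r, 7 further GR peaks were spread over the introns, from 69094 to 270643 bases after the start. Of these, 5 had H3K4me1 as their only mark, and the widest of them was chr7:68215540-68215955 with 416 bases. The peak nearest the end of the gene, chr7:68223394-68223546, sat on H3K27ac and H3K4me1. The remaining one, chr7:68129176-68129394, was 219 bases wide and lay 176458 bases after the start with Pol2 (362 bases), H3K27ac and a H3K4me3 peak of 1401 bases and fold 22.1. The nearest annotated start of any transcript was 18356 bases from that H3K4me3 peak and belonged to a retained-intron transcript of Igf1r itself. Igf1r and Insr therefore both carried, deep in an intron, an element with GR, Pol2, H3K4me3 and H3K27ac and no annotated start. The combination was not particular to the receptors. An intronic H3K4me3 peak of Irs1, 7160 bases from the nearest start of any transcript, also had GR, Pol2 and H3K27ac. How often such elements occur over all genes was not counted. By distance, 4 of the 8 GR peaks were nearer to the start of Pgpep1l, a gene beyond the end of Igf1r that was named after its values were seen, although they lay within the Igf1r body. The 41 H3K4me1 peaks of the Igf1r region were more than 99.8% of genes had, and they covered 31.1% of the body in pieces of at most 5993 bases.

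Irs1 encodes insulin receptor substrate 1, the adaptor known for coupling the receptor to glucose uptake in muscle. Its start carried the widest H3K4me3 peak of the whole list, with 7890 bases, ahead of the next at 7454 bases and of a list median of 964. The peak ran over the start and into the coding exon. Its fold of 25.7 was higher than those of only 34.7% of genes, and its −log10 q of 95.3 was higher than those of 46.1%. Width and fold thus placed this promoter very differently. A further H3K4me3 peak of 1279 bases and fold 19.3 followed 7799 bases after the start, and H3K27ac peaks of 2866, 3450 and 1684 bases covered the same stretch.

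Irs1 had 6 GR peaks, and 4 of them were nearest to its own start. The widest, chr1:82291278-82291857, was 580 bases wide, had its midpoint 152 bases before the start, and overlapped Pol2 and CTCF (fold 8.91). A GR peak of 194 bases lay 286 bases after the start, one of 123 bases lay in the coding exon at 4575 bases, and one of 243 bases lay at 7987 bases. All 4 were under H3K4me3, and 3 of the 4 overlapped Pol2. The fifth, chr1:82239561-82239705, had H3K4me1 alone and was nearest to the gene Gm9747, and the sixth, of 312 bases, lay at the start of the neighbour Rhbdd1. Of the 8 Pol2 peaks of the region, 7 were nearest to Irs1, the widest of these at the start with 345 bases. Most of the gene body, 81.0%, was under H3K4me1, nearly all of it in a peak of 45223 bases that ranked 76th among 75523.

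Irs2 encodes the second widely expressed adaptor. All 6 of its GR peaks were nearest to its own start, and all 6 overlapped H3K27ac. The peak chr8:11008786-11009225 was 440 bases wide and centred 548 bases before the GENCODE coding start. The peak chr8:11009595-11009863 was 269 bases wide and centred 1271 bases before that start. A GR peak of 162 bases, centred 1310 bases after the start in the coding exon, overlapped both Pol2 and CTCF (fold 6.72). These 3 lay under a H3K4me3 peak of 3699 bases, whose fold of 53.1 was the highest of the 8 genes and whose width ranked 131st. That H3K4me3 peak also covered the start of the antisense transcript 9530052E02Rik, named here after the values were seen, and ChIP peaks carry no strand.

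The other 3 GR peaks of Irs2 were on H3K27ac and H3K4me1 without H3K4me3. They lay 16652 bases upstream (chr8:11024994-11025226, 233 bases), in the intron 15922 bases downstream of the start (149 bases), and 37774 bases downstream of it, beyond the gene's end (chr8:10970602-10970765, 164 bases). Of the 11 H3K27ac peaks of the region without H3K4me3, 4 overlapped GR. Irs2 had 8 Pol2 peaks, all nearest to its start, and the widest, of 740 and 440 bases, lay upstream of the GENCODE coding start. RefSeq has an Irs2 start further upstream, with chr8:11008930-11009179 as the 250 bases before it. Both of these Pol2 peaks and the GR peak of 440 bases overlapped those bases, so their distances depend on the annotated start. The Pol2 peaks inside the gene covered 4.03% of its body, the highest value of the 8 genes and higher than in 92.2% of all genes. H3K27ac covered 26.2% of the body and H3K4me1 95.1%. The Irs2 body was the second shortest of the 8, with 23.778 kb, and a peak of given width takes a larger share of a short body.

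Pik3r1 encodes the regulatory subunits p85α and the shorter p55α and p50α of PI3-kinase, which hold the catalytic subunit at the adaptors. It had 9 GR peaks, all nearest to a start of its own, which is more than 94.8% of genes had. Its coding starts fell into 3 groups. The first, at position 101768217 of chromosome 13, had GR peaks of 529 and 271 bases, Pol2 peaks of 522 and 174 bases and a H3K4me3 peak of 3076 bases with a fold of 44.4. The second, 73617 bases downstream, had GR peaks of 170, 124 and 157 bases and a H3K4me3 peak of 1282 bases with a fold of 32.4, and no Pol2 peak. The third, from 75587 bases downstream, had a H3K4me3 peak of 753 bases with a fold of 9.34 and H3K27ac, and neither GR nor Pol2. The 3 groups therefore differed in which of GR and Pol2 was called, while all had H3K4me3 and H3K27ac within 1 kb.

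The RefSeq promoters of the first and the last group (GRCm38.p6) are shown because the data differed at them. The 250 bases before each start are given 5′ to 3′ on the minus strand, the strand of the gene, with each CG dinucleotide in capitals.

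Pik3r1 first start, chr13:101768218-101768467: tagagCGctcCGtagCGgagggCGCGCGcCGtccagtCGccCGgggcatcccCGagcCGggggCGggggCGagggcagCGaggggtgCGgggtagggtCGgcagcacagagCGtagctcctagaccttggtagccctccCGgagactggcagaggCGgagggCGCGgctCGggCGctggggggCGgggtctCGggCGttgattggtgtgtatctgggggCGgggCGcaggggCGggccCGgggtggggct

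Pik3r1 last start group, chr13:101692631-101692880: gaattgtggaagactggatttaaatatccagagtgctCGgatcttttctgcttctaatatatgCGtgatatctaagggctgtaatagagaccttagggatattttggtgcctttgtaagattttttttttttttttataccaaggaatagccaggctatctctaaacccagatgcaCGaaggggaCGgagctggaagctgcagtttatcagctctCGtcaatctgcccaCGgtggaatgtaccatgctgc

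The first holds 30 CG dinucleotides and the last holds 6. Over the 300 bases of each RefSeq entry the GC content was 75.7% at the first start and 43.7% at the last group, around a median of 52.7% over 32851 promoters. The entry of the first start overlapped H3K4me3 and H3K27ac peaks. That of the last group overlapped H3K27ac but no H3K4me3 peak, since the H3K4me3 peak of that group lay further into the gene. RefSeq entries matched 7 of the 8 genes with 12 promoters, and Insr had none in the table.

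The GR peak with the best GRE match, chr13:101811862-101812343, was 482 bases wide and overlapped H3K4me1, H3K27ac peaks of 558 and 319 bases and a Pol2 peak of 192 bases, without H3K4me3. Outside the Akt1 and Akt2 regions it was the only one of the 52 GR peaks that overlapped Pol2 without H3K4me3. The peak with the next best match, chr13:101719434-101719598, was 165 bases wide, lay in an intron and overlapped H3K27ac and a CTCF peak (fold 5.16). GR peaks at chr13:101738893-101739095 (203 bases) and chr13:101698102-101698224 (123 bases) had H3K4me1 alone. An upstream H3K4me3 peak of 598 bases and fold 8.74, 33443 bases before the first start, had H3K27ac but neither GR nor Pol2. Of 6 H3K27ac peaks without H3K4me3 in the region, 3 overlapped GR. H3K4me1 covered 64.0% of the body, with a widest peak of 23983 bases.

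Akt1 encodes the broadly expressed AKT kinase linked to growth. Its region held 10 GR peaks, more than 96.2% of genes had, but only 2 were nearest to a start of Akt1. The peak chr12:112671092-112671239 was 148 bases wide, lay 398 bases from the second start group and sat on H3K27ac and H3K4me1. The peak chr12:112667629-112667824, of 196 bases, had H3K4me1 alone. No GR peak lay within 1 kb of the first start group. There a Pol2 peak of 99 bases, the narrowest width in the Pol2 list, lay with a H3K4me3 peak of 1687 bases and fold 36.9 and a H3K27ac peak of 1561 bases.

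The other 8 GR peaks of the Akt1 region belonged by distance to neighbours. Downstream of Akt1, 6 were nearest to Adssl1, a muscle adenylosuccinate synthetase gene whose start lies outside the region and which was named after the values were seen. Of these, 5 overlapped a single Pol2 peak of 4656 bases, and the widest of them, chr12:112629369-112629820, had 452 bases. One of 502 bases lay at the start of Siva1. One of 292 bases, upstream of Akt1, lay with Pol2 and a H3K4me3 peak of fold 45.6 over the start of Gm30238, an unclassified transcript also named after its values were seen. The nearest GR peak outside the region was 867 bases past its edge, on the Adssl1 side, and the nearest inside it was chr12:112621966-112622109, with 144 bases. At the other 7 genes the nearest GR peak outside lay at least 15905 bases past the edge. The count at Akt1 depended on the window, with 3 GR peaks for a window of 25 kb and 17 for 100 kb. Akt1 also had 5 CTCF peaks in its region, more than 99.3% of genes had, of which 1 was nearest to an Akt1 start (602 bases upstream, 185 bases wide, fold 6.10).

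Akt2 encodes the AKT kinase linked to insulin-stimulated glucose uptake. Its coding starts fell into 4 groups. The first had a GR peak of 198 bases, Pol2 peaks of 395 and 151 bases, a H3K4me3 peak of 1694 bases with a fold of 31.7 and H3K27ac. The second, 5278 bases further, had H3K27ac (1069 bases) and H3K4me1 alone. The third, at 14245 bases, had a GR peak of 268 bases, a Pol2 peak of 149 bases and a H3K27ac peak of 2285 bases. Its H3K4me3 peaks were 309 and 191 bases wide with folds of 4.73 and 4.67. The fourth, from 16196 bases, had the widest GR peak of the gene, chr7:27607626-27608069 with 444 bases, and a Pol2 peak of 130 bases. The H3K27ac peak of 2285 bases and the H3K4me3 peak of 191 bases also lay within 1 kb of this group, as did H3K4me1. GR and Pol2 were thus called at 3 of the 4 groups, and the H3K4me3 fold was highest at the first.

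Of the other GR peaks in the Akt2 region, one of 390 bases lay at the start of Pld3 and one of 291 bases at that of 2310022A10Rik. The last, chr7:27630113-27630338 in an Akt2 intron, was the only GR peak of the 52 on none of the 3 histone marks. The region held 10 H3K27ac peaks without H3K4me3, all nearest to Akt2, and none overlapped GR. H3K4me1 covered 70.6% of the body and H3K27ac 14.8%, and no CTCF peak was called in the region.

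**Figure D2:**
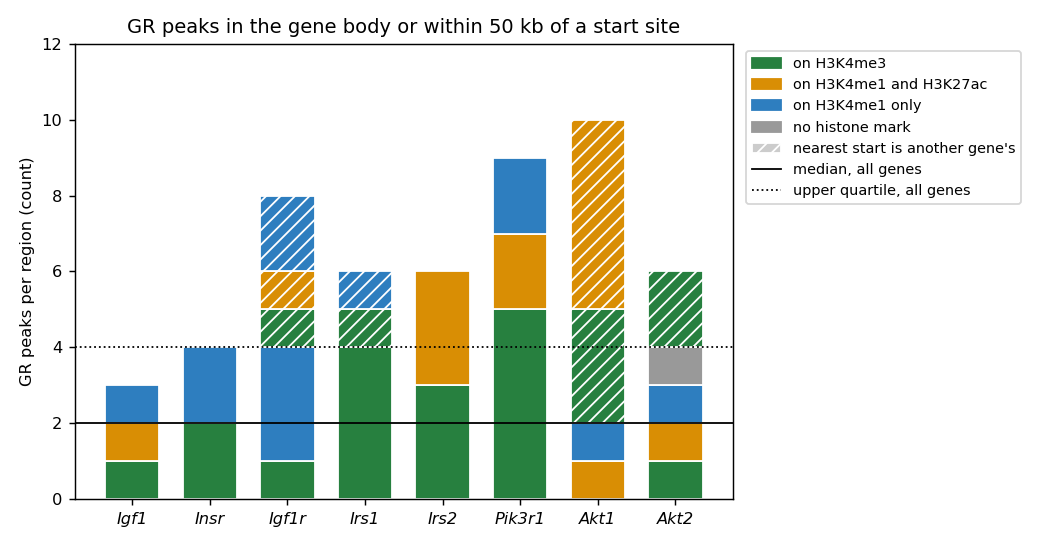
Number of GR peaks per region for each of the 8 genes, stacked by the histone marks that the peaks overlap. Hatching marks peaks whose nearest protein-coding start belongs to another gene, and the lines are the median (2) and upper quartile (4) of all protein-coding genes. Akt1 has the tallest bar with 10 peaks, 8 of them hatched, and Pik3r1 has 9 with none hatched.

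Over the 8 genes the number of GR peaks per region ran from 3 to 10 with a median of 6, and the median over all genes was 2. Long regions collect more peaks, and per 100 kb the median was 5.12 for the 8 genes and 1.12 for all genes. On that scale Akt1 was highest with 9.68, although 8 of its 10 peaks were nearest to other genes, and Insr (1.93), Igf1 (2.33) and Igf1r (2.42) were lowest. With no replicate library, the error of these counts between mice is unknown.

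Of the 52 GR peaks, 24 overlapped H3K4me3 (46.2%, exact Clopper-Pearson 95% interval 32.2 to 60.5%), and the share over all GR peaks was 53.2%. A further 14 were on H3K27ac and H3K4me1 without H3K4me3 (26.9%, 15.6 to 41.0%, against 19.3% of all GR peaks). H3K4me1 was the only mark at 13 (25%, 14.0 to 38.9%, against 19.9%). H3K27ac overlapped 37 (71.2%, 56.9 to 82.9%, against 69.3%), and Pol2 overlapped 26 (50%, 35.8 to 64.2%, against 51.3%). CTCF overlapped 3 (5.77%, 1.21 to 15.9%, against 7.09%), 1 each at Irs1, Irs2 and Pik3r1. Each of these intervals holds the share of the whole list, so no difference in marks from GR peaks in general was detectable at this number of peaks. The intervals cover counting error only, and peaks of a gene are not independent. By position, 25 of the 52 lay in introns, 13 upstream, 8 downstream, 4 in UTR exons and 2 in coding exons, which were those of Irs1 and Irs2. Their median width was 195 bases, against 212 for all GR peaks.

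The 8 regions held 50 H3K27ac peaks without H3K4me3, of which 12 overlapped GR (24%, 13.1 to 38.2%). The share over the whole list was 20.1% (4846 of 24095). Of the 12, 4 were at Irs2, 3 at Pik3r1, 3 at Akt1 and 1 each at Igf1 and Igf1r. Irs1, Insr and Akt2 had 5, 5 and 10 such peaks and none with GR. The numbers per gene are too small to order the genes.

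**Figure D3:**
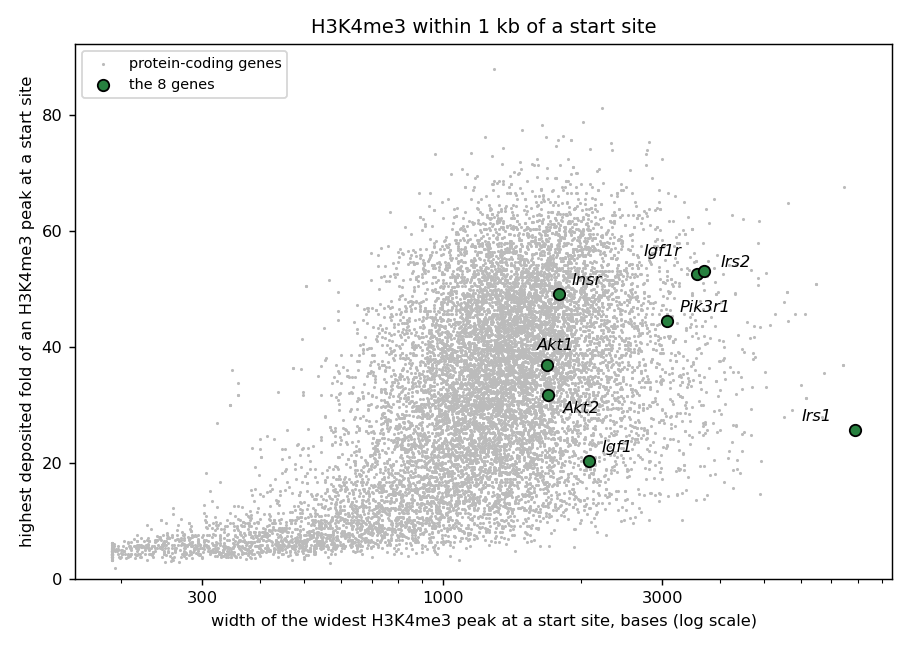
Width in bases (log scale) of the widest H3K4me3 peak within 1 kb of a start against the highest deposited fold there, with a grey point for each of 13314 protein-coding genes. The 8 genes are in green: Irs1 lies at the far right with 7890 bases and a fold of 25.7, and Irs2 and Igf1r lie together near 53.1 and 52.5.

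All 8 genes had H3K4me3 peaks wider than the median of 1317 bases over genes with such a peak. The narrowest was at Akt1 (1687 bases), followed by Akt2 (1694), Insr (1791) and Igf1 (2081). Pik3r1 (3076), Igf1r (3577), Irs2 (3699) and Irs1 (7890) were wider than those of at least 97.6% of genes. By fold the order was Irs2, Igf1r, Insr, Pik3r1, Akt1, Akt2, Irs1 and Igf1, from 53.1 down to 20.3, with a median of 40.7 against 33.5 over all such genes. Each fold comes from 1 library, so no spread is known by which neighbours in this order could be separated. H3K27ac at the starts was wide as well, with a median of 1691 bases for the widest peak at each of the 8 genes against 691 over all genes with such a peak.

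**Figure D4:**
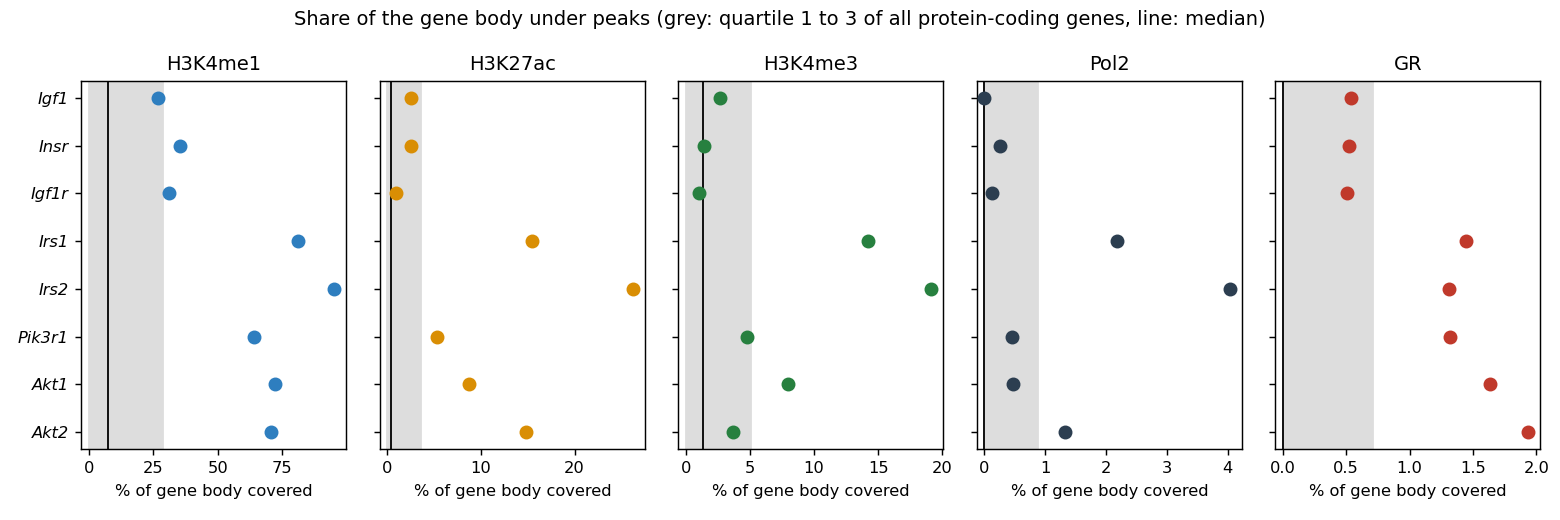
Percent of the gene body covered by peaks of 5 lists for each of the 8 genes, with the span from the lower to the upper quartile of all protein-coding genes in grey and their median as a line. Irs2 has the highest H3K4me1, H3K27ac, H3K4me3 and Pol2 cover (95.1%, 26.2%, 19.1% and 4.03%), and Igf1 has no Pol2 cover.

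Peaks of H3K4me1 covered a median of 67.3% of the 8 gene bodies, against 7.50% over all protein-coding genes, whether or not these carried any mark. Irs2, Irs1, Akt1, Akt2 and Pik3r1 had between 64.0% and 95.1%, and Insr (35.3%), Igf1r (31.1%) and Igf1 (26.9%) had less. The median cover by H3K27ac was 7.01% against 0.447%, and by Pol2 0.464% against 0. Without the first 1 kb after each start the median Pol2 cover was 0.115%. Where the cover lay differed between genes. In the Pik3r1 body it lay next to the first start, whereas in the Igf1r body the Pol2 peak lay 176362 bases after the start.

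For comparison within the tissue, Pol2 lay at the starts of 10 of 10 marker genes of muscle fibres, with a median Pol2 cover of 99.4% of their bodies. Pol2 also lay at the starts of 4 of 5 fibro-adipogenic and fibroblast markers (cover 0 to 0.957%), and of 1 of 5 endothelial, 1 of 5 immune and 1 of 4 adipocyte markers. It lay at none of 4 satellite cell and none of 4 liver markers. Markers without a Pol2 peak at a start included Cdh5 and Kdr (endothelial), Ptprc and Adgre1 (immune), Adipoq (adipocyte) and Pax7 (satellite cell). H3K4me3 gave another picture. It lay at the starts of 5 of 5 endothelial, 5 of 5 fibro-adipogenic and fibroblast and 2 of 4 satellite cell markers. It also lay at 1 of 5 immune, 1 of 4 adipocyte and 0 of 4 liver markers. H3K27ac lay at 5 of 5 fibro-adipogenic and fibroblast and 2 of 5 endothelial markers, and at none of the other non-fibre markers. What cells other than muscle fibres contributed at the 8 genes was not tested.

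The wider pathway was described by 48 further genes in 6 roles. Of these, 46 had a GR peak in their region, beside the 67.6% of all genes. The 2 without were Igfbp3, which encodes an IGF binding protein, and Irs4, an adaptor gene on the X chromosome. A GR peak nearest to the gene's own start was found for 42 of the 48, and the share of all genes by that rule was not counted. The median was 3 GR peaks per gene, with a range of 0 to 17. At the starts GR was called at 40 of the 48 (42.6% of all genes), Pol2 at 41 (46.6%), H3K4me3 at 46 (60.9%) and H3K27ac at 44 (51.8%).

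By role, GR lay at the start of 7 of 7 kinases, 5 of 5 PI3-kinase subunits, 10 of 11 brakes on the receptor and adaptors, 10 of 12 AKT targets, 6 of 8 receptors and adaptors, and 2 of 5 ligand and binding protein genes. The share over all genes was 42.6%, and these small counts were not tested against each other. The 5 genes with most GR peaks were Slc2a4 with 17, Tbc1d1 and Pik3r2 with 16 each, Gsk3a with 15 and Shc1 with 14. Slc2a4 encodes the insulin-responsive glucose transporter GLUT4, and Tbc1d1 a regulator of its traffic. All 16 peaks of Tbc1d1 were nearest to its own starts, whereas Slc2a4, Pik3r2, Gsk3a and Shc1 had 3 each and owed the rest to neighbouring genes. Tbc1d1 thus had the most GR peaks nearest to its own starts among these 5.

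The whole-peak search for the GRE found 2 of the 52 GR peaks within 2 mismatches (3.85%, 0.469 to 13.2%), against 7.01% of all GR peaks. Within 3 mismatches it found 6 (11.5%), against 19.7%. The AGAACA half-site occurred in 9 of the 52 windows of 200 bases at the peak midpoints (17.3%, 8.23 to 30.3%), in 17.1% of all GR windows and in 16.7% of windows 2 kb to the side. Over the whole list the half-site was thus about as common beside GR peaks as in them. The full GRE within 2 mismatches was not, with 1519 of 23188 GR windows (6.55%) against 897 of 44857 windows beside them, and it occurred in 2 of the 52 windows (3.85%). The FOXO site TGTTTAC, bound by factors that AKT inhibits, occurred in 2 windows (3.85%), against 2.51% of all GR windows and 2.61% beside them. The E-box CAGCTG, a site of muscle basic helix-loop-helix factors, occurred in 10 windows (19.2%, 9.63 to 32.5%), against 18.2% of all GR windows and 9.76% beside them. The RefSeq promoters of the genes held the half-site in 0 of 12, the FOXO site in 1 (Akt1) and the E-box in 2 (Akt2 and Igf1), and 19.0%, 3.65% and 16.3% of all promoters held them.

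Similarity of pattern was measured as the Euclidean distance over 6 values, the log2 percent of the region covered by each list after adding 0.1. The nearest gene was Cables1 for Igf1 (0.66), Akap13 for Insr (0.39), Tgfbr1 for Igf1r (0.49) and Cisd3 for Irs1 (0.41). It was 1700056E22Rik for Irs2 (0.30), Nfia for Pik3r1 (0.45), Otub2 for Akt1 (0.38) and Mfn2 for Akt2 (0.40). Cables1, like Igf1, had no Pol2 peak in its region, with 18.3% of the region under H3K4me1 against 21.5% for Igf1. Among the 8 genes, the closest pair was Irs1 and Irs2 (0.78) and the next was Igf1r and Insr (1.51), whereas Akt1 and Akt2 were 4.52 apart. The regions include peaks of neighbours. In the Akt1 region 10 of 11 Pol2 and 4 of 5 CTCF peaks were nearest to other genes. In the Akt2 region this held for 4 of 8 Pol2 peaks, and no CTCF peak was called. What neighbours added to the distances was not tested. For Irs1, Irs2, Igf1r and Insr, the nearest of all genes was thus not the other gene of the pair. A nearest gene can by definition not be farther away than that other gene. How many genes lay closer than the other gene of the pair was not counted, so likeness within a gene family was not tested. Akt1 and Igf1 were farthest apart (8.67).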

How the data were processed

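ChIP-seq peak lists of 6 antibodies (1 library each) were used, with samples grouped by antibody. The tools named, per the submitters' processing notes, are MACS2 (no version), Bowtie 1.0.0 and bcl2fastq 2.17.1.14, with the build mm10; order, thresholds and library depths are not stated there. The authors deposited positions for all 6 lists. For H3K4me3 and CTCF the authors also deposited a score, a fold (ratio) over the control, and a −log10 p-value (not used here) and a −log10 q-value for each peak, in columns without a header that were told from their values. The other 4 lists carry no strength, and width was not taken as one.

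Mitochondrial peaks, of which GR had 8, H3K4me3 had 7, CTCF had 5 and Pol2 had 1, were left out. Overlap meant at least 1 shared base. Neighbouring peaks were counted separately. Intervals are exact Clopper-Pearson 95% intervals. The 8 genes, the pathway and marker lists, the motifs and the naming rule were chosen with earlier results of these data known. The rule named the 8 genes, pathway genes without GR, the 5 with most GR peaks, the nearest gene in pattern and neighbours whose starts lay in a region. With 1 library per antibody no test between samples was made. Alternatives covered windows, overlaps, peak widths, start sites and motif settings. Python 3.11.15, pandas 2.3.3, numpy 2.4.6, scipy 1.17.1, pysam 0.24.0 and matplotlib 3.10.9 were used, and the counting was tested on simulated data.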

Additional observations from a re-analysis of the deposited data

How the results depend on the processing

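The count of 52 GR peaks fell to 34 with gene bodies only and to 23 with the widest 50% of GR peaks, and it was 41 for 25 kb, 70 for 100 kb and 36 for peaks nearest a start of the 8 genes. The median Pol2 cover of 0.464% fell to 0.115% without the first 1 kb after a start and to 0.144% with the widest 50% of Pol2 peaks. The half-site share of 17.3% was 7.69% in windows of 100 bases, and over all GR peaks it went from 17.1% to 10.6%. The full GRE within 2 mismatches was held by 3.85%, against 6.55% of all GR peaks. The other 33 values of the main comparisons stayed within their spread or within 1.5 times. With the widest 50% of each list, GR lay at a start of 6 of the 8 genes (30.4% of all genes), without Igf1 and Akt1. Pol2 lay at 6 as well (30.9%), without the same genes. Within 500 bases of a GENCODE coding start, GR lay at 7 genes (41.8%), without Igf1r. Pol2 lay there at 6 (46%), without Igf1 and Igf1r. No paired analysis was possible because each antibody had 1 library. The unknown depth limits every statement that a peak was absent.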
